A study of Arabidopsis thaliana with 12 samples.

Results

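The mature root of uninduced Arabidopsis thaliana is described here from the 6 libraries labelled Mock, of 12 libraries in all, 3 after 24 h and 3 after 8 h of treatment with the solvent DMSO. Members were chosen by that label alone. All 12 libraries, the mock ones included, came from plants of the genotype 35S:XVE>>PLT5-TagRFP, in which a viral 35S promoter expresses the estradiol-activated regulator XVE, so that estradiol switches on a fusion of the transcription factor PLT5 with TagRFP, a red fluorescent protein. The other groups, 3 libraries at 24 h and 3 at 8 h, received estradiol (induced roots). They enter the main fit, where they share the estimate of the spread behind the mock tests. Their time change is also set beside that of mock roots. Each sample pooled 1.5 cm of root, cut directly below the hypocotyl, from 15 plants after removal of visible lateral roots. The labels give 3 biological replicates per group and do not say whether these were separate sowings, so p-values measure the spread between these samples. No group of plants without the transgene was analysed here. The labels give hours of treatment but no plant age and no hour of the day, so length of treatment, age and hour of harvest cannot be told apart between the times.

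The upper root of a young Arabidopsis plant has left primary growth behind. A ring of dividing cells, the cambium, produces xylem inward and phloem outward. A second layer in the pericycle produces cork, whose walls carry the polyester suberin, while endodermis, cortex and epidermis are shed from the oldest part. Arabidopsis roots are also known for ER bodies, compartments of the endoplasmic reticulum packed with the beta-glucosidase PYK10, which releases toxic products from stored glucosides when tissue is damaged.

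Library totals lay between 34958324 and 41447647 counts over 34262 loci. The log2 CPM values (counts per 1000000 of a library's size after TMM scaling) of any pair of mock libraries correlated at 0.9878 to 0.9928 across genes, which are not independent replicates. PLT5 (AT5G57390), the gene of the transgene, stood at 2383 to 2929 CPM in the 6 induced libraries and at 11.78 to 17.19 CPM in the 6 mock libraries, so no library went against its label. In mock roots PLT5 averaged 14.11 ± 2.78 CPM at 24 h and 13.27 ± 1.49 CPM at 8 h (SD, n = 3 each), and its log2 fold change of 0.09 ± 0.124 (SE) did not pass the test (edgeR adjusted p = 0.895).

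Most counts in the uninduced root came from nuclear protein-coding genes, and no single locus held more than 2.63% of all counts in any library. Nuclear protein-coding genes took 89.45% ± 0.236 of counts at 24 h and 89.65% ± 0.0755 at 8 h. Plastid genes took 6.505% ± 0.0895 at 24 h and 6.199% ± 0.109 at 8 h. Mitochondrial genes took 2.086% ± 0.1 at 24 h and 2.194% ± 0.0987 at 8 h (SD, n = 3 each for all shares). The plastid share was 6.453% to 6.608% in the 24 h libraries and 6.129% to 6.325% in the 8 h libraries, without overlap. An exact two-sided permutation test gave p = 0.1 for it, the smallest value that 3 against 3 libraries allow, and 0.2 to 0.9 for the other classes.

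A length-scaled abundance was computed as counts per base of locus, scaled to a sum of 1000000 in each library. The deposited length equals end minus start at every locus, so introns are included and genes with long introns are understated. On that scale the plastid genes held 15.48% of the total, nuclear non-coding or unmatched loci 11.22% and mitochondrial genes 3.136%, as means of the 6 libraries. Short, intensely transcribed loci thus weighed more than in the counts, and nuclear protein-coding genes held 70.16%.

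The single highest locus was plastid psbA (ATCG00020), which encodes the D1 protein of photosystem II. It had 27480, 26540 and 26420 CPM at 24 h, and 26160, 24200 and 22560 CPM at 8 h. All 24 h libraries lay above all 8 h libraries, but the log2 difference of 0.14 ± 0.0834 (SE) did not pass the test (edgeR adjusted p = 0.656). Plastid rbcL, the large subunit of the carbon-fixing enzyme Rubisco, averaged 9626 CPM at 24 h and 9206 CPM at 8 h, and the photosystem I genes psaA and psaB averaged 3107 and 2961 CPM at 24 h and 3052 and 2960 CPM at 8 h. Per length, psbA reached 43770 and rbcL 11890 as means of the 6 libraries.

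Among non-coding loci, 3 from the Ensembl set, ENSRNA049493835, ENSRNA049493837 and ENSRNA049493670, held mean length-scaled abundances of 35890, 26360 and 14150, between psbA and the most abundant nuclear protein-coding gene. The first lies at chr4:1476284-1476589 on the plus strand and covers AT4G04595, a locus of no stated product. The second lies at chr4:1318879-1319185 on the minus strand and overlaps the end of AT4G02970, which the RefSeq annotation of TAIR10.1 names 7SL RNA1 but places on the plus strand. The third, at chr5:3014929-3015234 on the plus strand, lies opposite BXL3. 7SL RNA is the RNA core of the signal recognition particle, which guides nascent secreted proteins to the endoplasmic reticulum. The sequences are shown because these loci ranked above every nuclear protein-coding gene per length and resemble each other. The first 250 bases of each were read from the RefSeq TAIR10.1 genome, 5′ to 3′ on the strand of the locus, and capitals mark the longest run shared by all 3, of 15 bases.
ENSRNA049493835: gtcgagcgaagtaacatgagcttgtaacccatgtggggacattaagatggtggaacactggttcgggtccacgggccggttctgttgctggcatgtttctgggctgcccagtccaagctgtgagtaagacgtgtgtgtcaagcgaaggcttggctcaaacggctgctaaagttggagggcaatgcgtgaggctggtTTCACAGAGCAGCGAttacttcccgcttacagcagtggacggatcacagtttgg
ENSRNA049493837: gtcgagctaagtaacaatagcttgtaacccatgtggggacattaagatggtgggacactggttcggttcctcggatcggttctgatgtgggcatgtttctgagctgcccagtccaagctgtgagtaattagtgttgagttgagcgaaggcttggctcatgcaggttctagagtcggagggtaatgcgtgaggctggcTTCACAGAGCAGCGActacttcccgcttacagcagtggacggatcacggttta
ENSRNA049493670: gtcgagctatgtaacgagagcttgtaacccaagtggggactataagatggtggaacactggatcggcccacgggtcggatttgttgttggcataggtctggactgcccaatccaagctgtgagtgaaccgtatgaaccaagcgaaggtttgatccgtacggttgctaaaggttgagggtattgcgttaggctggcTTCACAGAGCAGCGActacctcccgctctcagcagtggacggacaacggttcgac
In global alignments of the whole loci the first pair was identical at 275 of 307 columns (89.6%), while ENSRNA049493670 matched the first at 79.5% and the second at 77.7% of columns. How reads were divided between such similar loci is not given in the sources used here, so their separate levels are uncertain. The levels were close between the times: ENSRNA049493835 stood at 36860 ± 1750 at 24 h and 34930 ± 4490 at 8 h per length, and ENSRNA049493837 at 26700 ± 935 at 24 h and 26010 ± 1850 at 8 h (SD, n = 3 each).

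**Figure D1:**
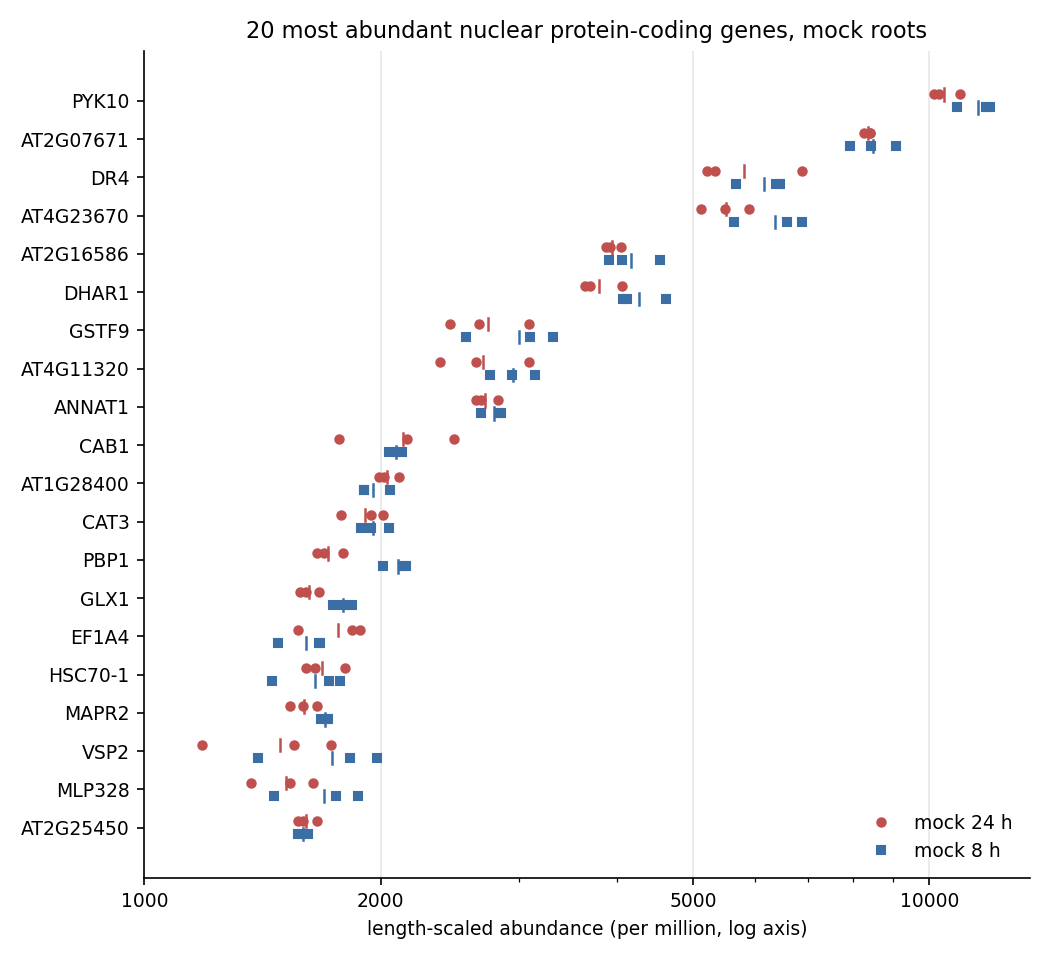
Length-scaled abundance (scaled to 1000000 per library, log axis) of the 20 most abundant nuclear protein-coding genes, 1 point per mock library, bars at the mean of 3; circles are 24 h and squares 8 h. PYK10, at a mean of 10990, lies above AT2G07671, at 8412, and the lower 11 genes lie within a narrow band near 1599 to 2114.

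PYK10 (AT3G09260, chromosome 3, 2840477 to 2843781, TAIR10) was the nuclear gene with most counts and the highest length-scaled abundance in each of the 6 libraries. It had 19820, 18510 and 18480 CPM at 24 h, and 21820, 21520 and 19750 CPM at 8 h. Both times overlapped narrowly, and the log2 difference of -0.15 ± 0.0825 (SE) did not pass the test (edgeR adjusted p = 0.612). PYK10 alone held 2.14% of nuclear protein-coding counts, with a range of 1.99% to 2.31% over the libraries. Its partners in the ER body system were also abundant per length. PBP1, a lectin that binds PYK10, averaged 1715 at 24 h and 2103 at 8 h, and NAI2, which is needed to form ER bodies, averaged 468.3 ± 16.6 at 24 h and 545.4 ± 33.3 at 8 h. NAI1, the transcription factor of this system, averaged 100.3 ± 7.91 at 24 h and 116.7 ± 5.38 at 8 h (SD, n = 3 each). None of the 6 genes passed the test, beside 0.662% of all genes tested. Of the 6, 5 had a negative log2 change, beside 11031 of 21439 genes tested. At an edgeR unadjusted p under 0.05, 4 were lower at 24 h and 0 higher, beside 4.38% and 5.09% of all genes. Lower without overlap lay 3 and higher 0, beside 6.68% and 6.72%. PBP1 came closest to passing, with 1601 to 1697 CPM at 24 h below 1934 to 2071 CPM at 8 h. Its log2 change was -0.30 ± 0.0643 (SE), with edgeR adjusted p = 0.0588.

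The 20 most abundant nuclear protein-coding genes per length held 9.6% of the length-scaled abundance of that class, the first 100 held 19.6% and the first 1000 held 47.4%. The root thus had no small set of genes that took most of its messages. Second in rank stood AT2G07671, annotated as a subunit C family protein of ATP synthase, with a mean of 8412. Its whole locus of 776 bases matched the mitochondrial genome without a mismatch, so reads of mitochondrial origin cannot be told apart from its own. Then came DR4 (drought-repressed 4), with 5813 ± 937 at 24 h and 6162 ± 432 at 8 h, and AT4G23670, a protein of the polyketide cyclase and lipid transport superfamily, with 5501 ± 391 at 24 h and 6365 ± 650 at 8 h (SD, n = 3 each). These neighbours exchanged ranks 3 and 4 between libraries. AT2G16586, an uncharacterised protein with a mean of 4058, has near-identical stretches elsewhere in the genome, the longest of 608 bases at 98.8% identity on chromosome 3, and its level is uncertain for that reason.

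Enzymes that handle reactive oxygen and glutathione were among the next ranks. DHAR1, which regenerates ascorbate, had a mean length-scaled abundance of 4033, and it shares a 653-base stretch at 94.3% identity with the neighbouring loci AT1G19540 and AT1G19550. GSTF9, a glutathione transferase, followed at 2868, and CAT3, a catalase that breaks down hydrogen peroxide, at 1936. GLX1, a glyoxalase family enzyme, stood at 1705. By counts alone, PRXR1, DOX1 and AT2G38380, all annotated in the peroxidase superfamily, also entered the first 20, with 2079, 1953 and 1857 CPM at 24 h and 2367, 2248 and 1976 CPM at 8 h. None of these 7 genes passed the test between the times, beside 0.662% of all genes tested. The papain-type protease AT4G11320, at 2826, and annexin ANNAT1, a calcium-binding membrane protein, at 2752, completed the first 10 with CAB1, at 2114. CAB1 encodes a chlorophyll a/b binding protein and shares 836 bases at 96.1% identity with AT1G29910 and AT1G29920.

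Counts and length-scaled abundance gave different orders where genes were long or short. METS1, a methionine synthase with a locus of 4828 bases, ranked 15 among nuclear protein-coding genes by counts and 58 per length. MAPR2, a membrane-associated progesterone binding protein with a locus of 484 bases, ranked 185 by counts and 17 per length. CAT3 ranked 4 by counts and 12 per length. With the union of RefSeq exons in place of the locus length, an alternative chosen after seeing the data, 15 of the 20 genes kept a place among the 20 most abundant, PYK10 stayed first at 15700, and EF1A4 moved to rank 26.

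Some members of the families of water transport, metal binding and one-carbon metabolism were abundant at both times. The 18 aquaporins spanned 1.97 to 1560 per length, with a median of 75.7. The vacuolar aquaporin TIP1;2 averaged 1570 ± 64.2 at 24 h and 1554 ± 82.3 at 8 h per length, and the plasma membrane aquaporin PIP1;3 averaged 642.2 ± 39.9 at 24 h and 611.4 ± 43.9 at 8 h. Metallothionein MT2B, of a family that binds metal ions, averaged 1235 ± 88.5 at 24 h and 1186 ± 184 at 8 h. SAHH1, which clears S-adenosylhomocysteine after methylation reactions, averaged 1289 ± 36.8 at 24 h and 1284 ± 103 at 8 h (SD, n = 3 each). No gene passed the test among 18 aquaporins, 5 tested metallothioneins, 8 genes of the methionine cycle and 17 housekeeping and translation genes. Of all genes tested 0.662% passed. The aquaporin sum was 3700 to 3840 per length at 24 h and 3360 to 3630 at 8 h, without overlap, while its median log2 change was 0.09. MT1A had 0 counts in all 6 libraries, where 3 counts over the 6 libraries would correspond to 0.0129 CPM; intervals and floors cover counting error only.

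Most genes of the suberin and cork, cambium, xylem and phloem lists stood above 1 per length in the mock root. The 3 most abundant markers outside the green tissue list belonged to suberin and cork: FACT and ASFT, acyltransferases that add aromatic acids to suberin, averaged 313.7 ± 39.3 and 269.5 ± 29.1 per length, and CYP86A1, a fatty acid hydroxylase of suberin synthesis, averaged 257.1 ± 17.7 (SD, n = 6 for all markers). All 19 members stood above 1. Whether cork or other cells with suberin carried these transcripts was not tested. The cambium list was present throughout, from 8.71 to 187, led by the D-type cyclin CYCD3;1 at 187.2 ± 11.8, the receptor kinase PXY at 111.7 ± 5.27 and the transcription factor ANT at 96.07 ± 6.07. WOX4, the homeobox gene downstream of PXY, stood at 71.66 ± 5.55. Xylem was represented by the proteases XCP1 at 195.9 ± 45.4 and XCP2 at 120.1 ± 31.6 and the metacaspase MC9 at 57.75 ± 15, while the fibre regulators NST1 and NST3 lay at 0.049 and 0.0875. The phloem list had a median of 13.6, and its members SWEET11 and SWEET12 lay under 1. Its highest members were the sulfate transporter SULTR2;1 at 100.1 ± 15.5 and the sieve element proteins SEOR1 at 91.06 ± 10.4 and SEOR2 at 75.26 ± 8.48. Which cells carried SULTR2;1 was not tested.

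Markers of the root tip and of lateral root founding were low, and those of outer tissues ranged widely. All 6 root tip and root cap markers lay under 1 per length, from 0.0184 for FEZ to 0.263 for BRN1, and PLT1, PLT2 and WOX5 were at 0.2355, 0.1667 and 0.1105. Of the 5 lateral root founding genes, 4 lay under 1 and LBD16 reached 1.045. The endodermis list had a median of 1.91: the barrier genes CASP1 and CASP2 stood at 5.408 and 1.601, whereas the regulator MYB36 reached 31.16 ± 3.97. In the epidermis and root hair list 6 of 11 members lay under 1, and the highest was RHD2, an NADPH oxidase known for root hair growth, at 26.04 ± 2.02. The cortex markers PEP (AT1G09750) and CO2 (AT1G62500) stood at 68.31 ± 8.29 and 33.25 ± 9.11 and the pericycle markers PHO1 and SKOR at 40.09 ± 4.04 and 0.4305 (SD, n = 6). In bulk samples, fewer cells of a type and less RNA per cell cannot be told apart.

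Transcripts of photosynthesis were also present in these root segments, which were cut just below the hypocotyl. RBCS1A, a small subunit of Rubisco, averaged 910.1 ± 81 at 24 h and 905.4 ± 19.7 at 8 h per length, LHCB3 averaged 403.9 ± 67.6 at 24 h and 325.4 ± 46 at 8 h, and PSBO1 averaged 339.5 ± 30.2 at 24 h and 318 ± 5.2 at 8 h (SD, n = 3 each). The summed green tissue list spanned 1980 to 2530 at 24 h and 2070 to 2170 at 8 h, so the times overlapped. None of its 11 genes passed the test, beside 0.662% of all genes tested. RBCS2B was at 0.5865, the only member under 1. Whether green cells of the root itself or shoot tissue carried these transcripts was not tested.

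**Figure D2:**
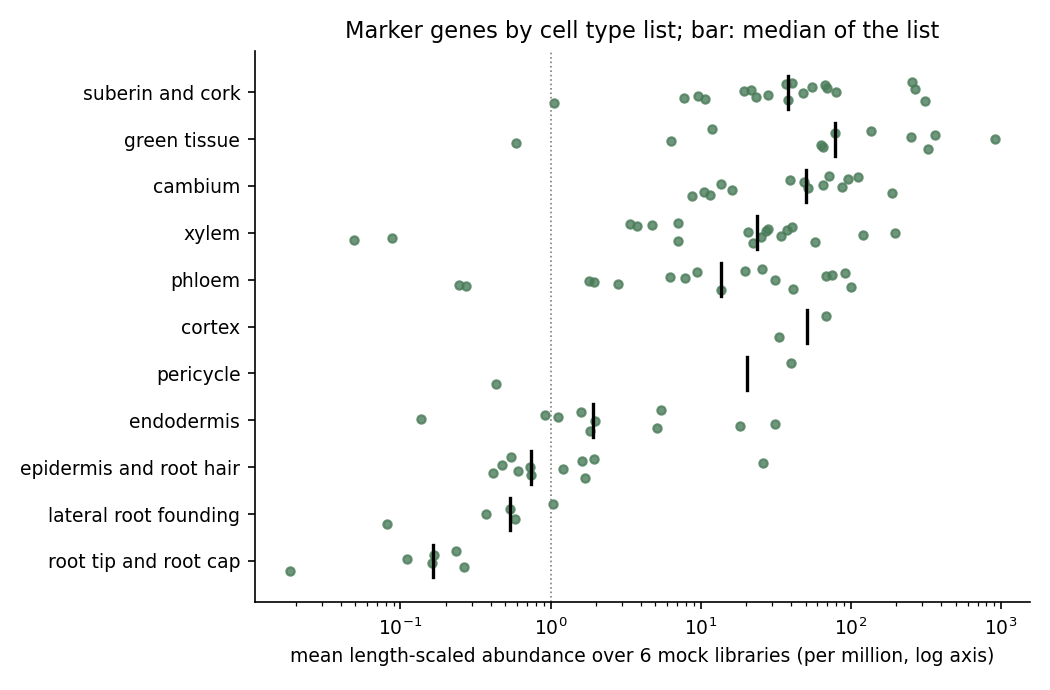
Mean length-scaled abundance over the 6 mock libraries (scaled to 1000000 per library, log axis) of each marker gene, by cell type list, with the list's median as a bar and 1 as a dotted line. Suberin, green tissue, cambium, xylem and phloem markers lie mostly above 1, as do 8 of 10 endodermis and both cortex markers, while 6 of 11 epidermis markers and all 6 root tip and root cap markers lie under 1.

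Mock roots changed little between the times. Of 21439 genes tested in a fit over all 12 libraries, 142 (0.662%) passed an edgeR adjusted p under 0.05: 105 (0.49%) rose and 37 (0.173%) fell at 24 h. The median log2 change over all genes was -0.00. Changes were small: the genes that rose had a median of 0.53, from 0.28 to 3.96, those that fell had a median of -0.53, from -2.18 to -0.26, and 2 genes in each direction passed 1 in size. None of the 142 overlapped between the times, against 6.72% of all tested genes that lay wholly higher and 6.68% that lay wholly lower at 24 h. The calls rest on the same values, so this lack of overlap is no separate evidence for them. The count depended on the libraries in the fit: one of the 6 mock libraries alone called 0 genes, with 1691 at an unadjusted p under 0.05, against 2032 in the fit of 12 (1092 higher, 5.09%, and 940 lower, 4.38%). Leaving out 1 library left 1 call without mock 24 h replicate 1, 5 without replicate 3 and 150 without replicate 2, and 7, 20 and 1 without mock 8 h replicates 1, 2 and 3. The direction of every called gene was kept in these 6 fits, which their lack of overlap all but fixed in advance. Only 1 gene, GSTF7, passed in all 6.

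**Figure D3:**
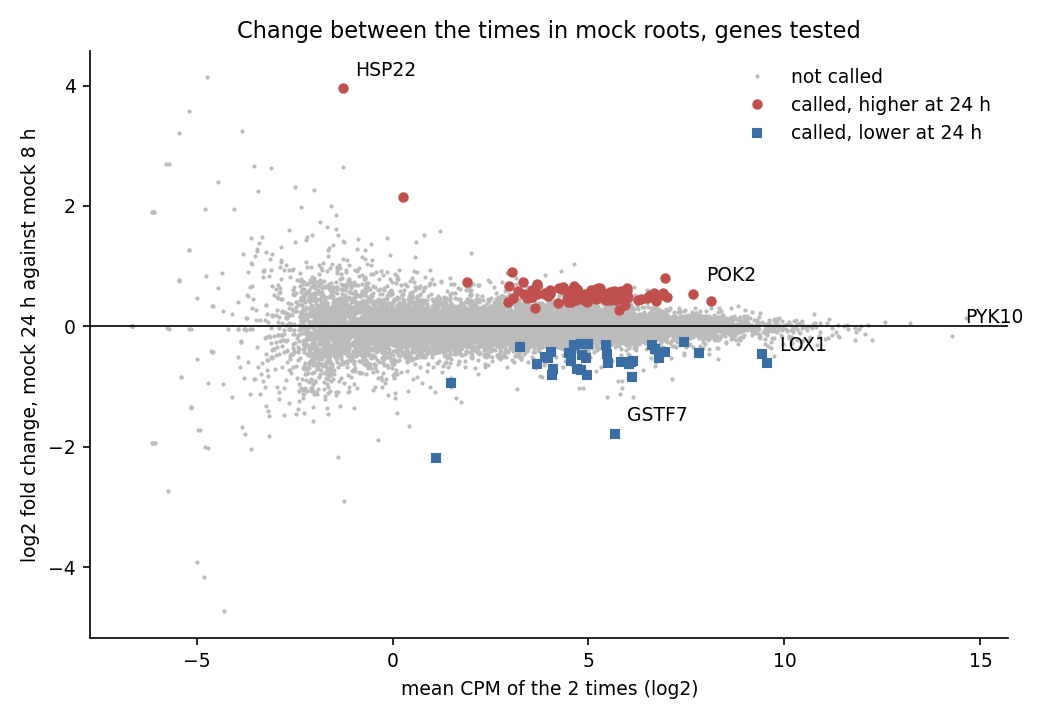
Log2 fold change of mock 24 h against mock 8 h (y) by mean CPM on a log2 axis (x) for the genes tested, with genes of an adjusted p under 0.05 as red circles (higher at 24 h) and blue squares (lower at 24 h). The cloud centres on 0, and GSTF7, at -1.78, stands apart among genes of moderate level.

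GSTF7 (AT1G02920, chromosome 1, 658578 to 659980, minus strand), a glutathione transferase, was the largest change among genes of at least 5 CPM. It had 18.1, 21.89 and 29.03 CPM at 24 h, and 68.2, 72.73 and 95.8 CPM at 8 h. The lowest 8 h library was well over the highest 24 h library. The log2 change was -1.78 ± 0.17 (SE), with edgeR adjusted p = 0.00415, and adjusted p = 0.0595 in the fit of the 6 mock libraries.

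The 10 largest falls were of mixed annotation. UGT74F2, which glucosylates salicylic acid, fell to 49.04 ± 8.27 CPM at 24 h, against 88.03 ± 21.1 at 8 h, with its lowest 8 h library at 64.7. The oxygenases AT4G25310 and AT4G02940, of the 2-oxoglutarate and Fe(II)-dependent family, fell to 12.24 ± 1.95 and 22.86 ± 0.582 CPM at 24 h, against 21.43 ± 4.68 and 39.78 ± 7.16 at 8 h. Germin-like protein GLP4 fell by 0.72, AT2G23910, an NAD(P)-binding protein, by 0.71, the phloem protein 2 family lectin PP2-A8 by 0.70 and the early light-induced protein ELIP1 by 0.63 on the log2 scale (edgeR adjusted p = 0.0218, 0.027, 0.0218 and 0.0362). AMT1;1, an ammonium transporter, had 36.03, 35.2 and 36.3 CPM at 24 h, and 61.45, 55.67 and 47.32 CPM at 8 h. Its log2 change was -0.61 ± 0.114 (SE), with edgeR adjusted p = 0.0372. Outside the rule, and named after its values were seen, the 9-lipoxygenase LOX1 was the most abundant gene to fall, with 593.9 CPM at 24 h and 907.5 CPM at 8 h (log2 change -0.61, edgeR adjusted p = 0.0218).

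In the phosphate starvation list 13 of 14 genes had a negative log2 change, beside 11031 of the 21439 genes tested, and their median was -0.27. Of the 14, 1 fell, beside 0.173% of all genes, and none rose. That gene was PHT1;1 (AT5G43350), a phosphate importer, with 82.5, 91.82 and 101.4 CPM at 24 h, and 127.1, 130.6 and 140.3 CPM at 8 h. It fell by 0.53 ± 0.0777 (SE) on the log2 scale (edgeR adjusted p = 0.0244), and its reads may be shared with a neighbour, since 1728 bases match AT5G43370 at 97.7% identity. SPX1, a phosphate sensor, stood at 25.58 ± 2.1 CPM at 24 h and 33.44 ± 2.8 at 8 h without overlap (log2 change -0.39, edgeR adjusted p = 0.08). The non-coding RNA AT4, at 212.4 ± 36.5 CPM at 24 h and 271.6 ± 32.7 at 8 h (SD, n = 3 each), overlapped between the times. The summed list spanned 524 to 685 per length at 24 h and 716 to 856 at 8 h, without overlap.

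In the iron list 2 of 18 tested genes fell and none rose, beside 0.173% of all genes that fell and 0.49% that rose. The list as a whole had no common direction, with 8 positive and 10 negative log2 changes, a median of -0.05 and 3 genes at an unadjusted p under 0.05 in each direction. FIT, the transcription factor that directs iron uptake, had 8.756, 11.61 and 10.22 CPM at 24 h, and 14.34, 15.98 and 16.71 CPM at 8 h, a log2 change of -0.62 ± 0.0995 (SE) with edgeR adjusted p = 0.0285. PDR9 (ABCG37), an exporter of phenolic compounds, had 182.4, 185 and 209.9 CPM at 24 h, and 278.6, 236.2 and 268.5 CPM at 8 h, a log2 change of -0.44 ± 0.0756 (SE) with edgeR adjusted p = 0.0295. Both genes were lower in every 24 h library. The uptake genes that FIT controls were barely counted: IRT1 averaged 0.3997 CPM at 24 h and 0.08164 at 8 h, and FRO2 averaged 0.2294 CPM at 24 h and 0.185 at 8 h. None of the 9 nitrate genes passed the test, beside 0.662% of all genes tested. Of the 9, 7 had a negative log2 change, beside 11031 of 21439 genes tested, and their median was -0.09.

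Cell division genes were among those that rose. All 12 genes of the mitosis list were higher in every 24 h library than in any 8 h library, against 6.72% of all genes tested, and 8 of 12 passed the test, against 0.49% of all genes, with none lower. As with the other lists, the members were chosen with earlier results of these data known. They were read in the same 6 libraries, so the 12 genes are not independent observations. Their log2 changes lay between 0.30 and 0.56, with a median of 0.46, beside -0.00 over all genes tested. The summed list spanned 352 to 409 per length at 24 h and 265 to 291 at 8 h. The mitotic cyclin CYCB1;2 had 53.28, 46.48 and 49.92 CPM at 24 h, and 36.53, 36.97 and 35.6 CPM at 8 h (log2 change 0.46 ± 0.0576 SE, edgeR adjusted p = 0.0163). Its reads may be shared with AT1G34460, which matches 1469 bases at 90.3% identity. The mitotic kinase CDKB2;1 had 68.21, 57.67 and 65.61 CPM at 24 h, and 46.21, 39.18 and 44.05 CPM at 8 h (log2 change 0.56 ± 0.0902 SE, edgeR adjusted p = 0.0285). Both genes stood well clear of the spread within a time.

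Among the members known from the building of the new wall between daughter cells, KNOLLE and PLE rose. KNOLLE, the syntaxin that fuses vesicles at the division plane, had 71.77, 66.37 and 68.51 CPM at 24 h, and 55.11, 53.84 and 52.68 CPM at 8 h (log2 change 0.35 ± 0.0602 SE, edgeR adjusted p = 0.0295). PLE, a MAP65 protein that bundles microtubules of the phragmoplast, had 53.41, 50.26 and 55.44 CPM at 24 h, and 36.71, 34.27 and 40.99 CPM at 8 h (log2 change 0.51 ± 0.0934 SE, edgeR adjusted p = 0.0363). The other genes of the list to rise were CYCA1;1, CYCB1;3, CDKB1;1 and the Aurora kinase AUR1, with log2 changes of 0.55, 0.45, 0.54 and 0.41. CYCB1;1, CDKB2;2, AUR2 and EDE1 had log2 changes of 0.30, 0.34, 0.43 and 0.51 and did not pass. The number of calls depended on the libraries: 8 of the 12 genes passed without mock 24 h replicate 2 and 1 without mock 8 h replicate 2, while 0 passed in the fit of 6 libraries and in each of the other 4 fits that left out 1 library. In all of these fits the 12 log2 changes were positive, which the lack of overlap between the times all but fixed in advance.

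**Figure D4:**
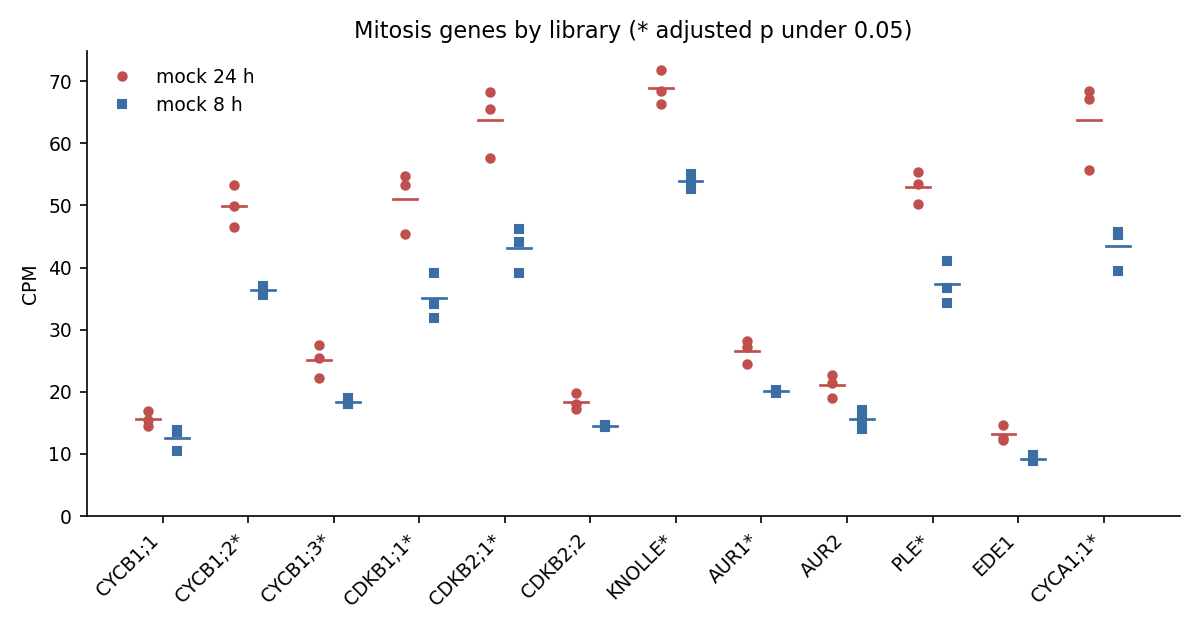
CPM of the 12 genes of the mitosis list, 1 point per mock library, 24 h (circles) left of 8 h (squares), bars at the mean of 3 and stars for an edgeR adjusted p under 0.05. No gene's 24 h points overlap its 8 h points; CYCB1;2 averages 49.9 CPM at 24 h and 36.36 CPM at 8 h.

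Further genes that rose carry annotations of the division machinery, a grouping made after the called genes were seen. Among tested genes whose RefSeq product contains the word kinesin, 8 of 27 rose and none fell, with a median log2 change of 0.24, beside 0.49% of all genes that rose. Of 93 products with the word cyclin 8 rose, of 36 with the word microtubule 5 rose, and of 31 IQ-domain proteins 3 rose. Their median log2 changes were small, at 0.06, 0.12 and 0.05. POK2, a kinesin that orients the phragmoplast, averaged 241.8 CPM at 24 h and 165.8 CPM at 8 h, and topoisomerase TOPII averaged 149.1 CPM at 24 h and 106.5 CPM at 8 h. MYB3R-4, a transcription factor that activates genes of mitosis, averaged 112 CPM at 24 h and 77.56 CPM at 8 h (log2 change 0.53, edgeR adjusted p = 0.03). The words glutathione S-transferase, glucosyl and oxygenase gave 2 of 53, 4 of 67 and 4 of 152 genes that fell and none that rose, beside 0.173% of all genes that fell. Their median log2 changes were -0.18, -0.05 and -0.03.

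By size, the 10 largest rises among genes of at least 5 CPM were of mixed annotation. CYP71B24, a cytochrome P450, had 10.22, 9.132 and 12.79 CPM at 24 h, and 4.754, 5.396 and 7.093 CPM at 8 h (log2 change 0.90 ± 0.177 SE, edgeR adjusted p = 0.0446). The thioredoxin-dependent peroxidase 2 gene AT1G65970 had 151.5, 156.8 and 164.9 CPM at 24 h, and 80.39, 86.16 and 103.8 CPM at 8 h (log2 change 0.81 ± 0.155 SE, edgeR adjusted p = 0.0396). It was the most abundant of the 10. The others were AT2G29340, of an epimerase and dehydratase family, AT2G33793 (DNA ligase-like), AT3G10880 (annotated tropomyosin), the calmodulin-binding protein gene IQD7, AT2G38160 and AT1G76740 (both uncharacterised), AT3G17680 (kinase interacting, KIP1-like) and ROPGEF5, an activator of ROP GTPases, with log2 changes between 0.64 and 0.74. HSP22, a small heat shock protein of the endoplasmic reticulum and the 1 gene of the 7 tested in the heat shock list that passed, had 0.9048, 0.4253 and 0.9472 CPM at 24 h, and 0.02556, 0.1199 and 0 CPM at 8 h. Its log2 change of 3.96 ± 0.647 SE (edgeR adjusted p = 0.0285) rests on very few counts and depends on the prior count of the fit. The other members of the list did not pass: 5 of its 7 tested genes had a negative log2 change, the median was -0.21, and 2 genes were higher and 3 lower at an unadjusted p under 0.05. For comparison, 0.49% of all genes rose.

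Promoters of the genes that rose and of those that fell were searched for short motifs. In the window from 250 bases before to 50 after the RefSeq start, read on both strands, the core of the mitosis-specific activator element, AACGG, occurred in 53 of 105 promoters of genes that rose (50.5%), in 5 of 37 of genes that fell (13.5%), in 26% of genes tested and in 24.7% of all 27443 promoters. At least 2 matches were present in 25 of the 105 (23.8%), in 0 of the 37 and in 4.89% of all promoters. This motif was added after the changed genes were seen. TATAAA occurred in 40% of promoters of genes that rose, 75.7% of those that fell and 52.1% of all. The evening element AAAATATCT was in 2 of 105, 1 of 37 and 2.82% of all, the CCA1 site AAAAATCT in 8 of 105, 3 of 37 and 7.88%, the G-box CACGTG in 10 of 105, 2 of 37 and 7.68%, and the telo box AAACCCTA in 4 of 105, 0 of 37 and 6.22%. AACGG is contained in none of the other motifs, and a match is a description, not a site of binding.

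Of the 12 mitosis promoters 10 held AACGG. The 250 bases upstream of the 4 genes that rose and carry at least 2 copies there are printed to show their spacing: CYCB1;2 (chr5:1861704-1861953), CYCB1;3 (chr3:3627274-3627523), PLE (chr5:20964538-20964787) and CYCA1;1 (chr1:16777353-16777602), all on the minus strand. They are from the RefSeq TAIR10.1 genome, 5′ to 3′ toward the gene, and capitals mark AACGG or its reverse complement CCGTT.
CYCB1;2: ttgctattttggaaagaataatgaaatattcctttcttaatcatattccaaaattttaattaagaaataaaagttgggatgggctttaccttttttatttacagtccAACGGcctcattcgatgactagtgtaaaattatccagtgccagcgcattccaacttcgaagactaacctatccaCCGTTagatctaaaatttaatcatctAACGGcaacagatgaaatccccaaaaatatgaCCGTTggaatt
CYCB1;3: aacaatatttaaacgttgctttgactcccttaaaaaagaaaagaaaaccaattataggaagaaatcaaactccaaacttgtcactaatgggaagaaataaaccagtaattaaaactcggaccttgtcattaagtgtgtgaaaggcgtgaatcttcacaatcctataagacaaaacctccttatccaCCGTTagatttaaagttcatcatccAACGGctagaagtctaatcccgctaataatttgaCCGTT
PLE: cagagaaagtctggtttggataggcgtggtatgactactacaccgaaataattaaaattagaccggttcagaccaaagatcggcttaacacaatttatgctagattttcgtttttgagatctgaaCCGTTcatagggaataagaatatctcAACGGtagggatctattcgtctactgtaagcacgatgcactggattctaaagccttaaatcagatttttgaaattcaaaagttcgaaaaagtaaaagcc
CYCA1;1: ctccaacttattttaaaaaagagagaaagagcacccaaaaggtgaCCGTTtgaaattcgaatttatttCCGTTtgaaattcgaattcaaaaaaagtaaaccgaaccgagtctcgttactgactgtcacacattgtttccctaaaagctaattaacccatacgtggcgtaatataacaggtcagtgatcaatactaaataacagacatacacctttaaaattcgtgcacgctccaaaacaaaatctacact
CYCB1;2 held 4 copies in this stretch, CYCB1;3 held 3, and PLE and CYCA1;1 held 2 each. CDKB1;1 and CDKB2;1, which also rose, held none in the 250 bases upstream. CYCB1;1, which did not pass the test, held 3 there, more than PLE and CYCA1;1.

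None of the 30 genes of the circadian clock, whose levels follow the hour of the day, passed the test, beside 0.662% of all genes tested. Members went both ways, with 16 positive and 14 negative log2 changes from -0.69 for ELF4 to 0.81 for PRR9 and a median of 0.04. At an unadjusted p under 0.05, 8 of 30 were higher and 5 lower, beside 5.09% and 4.38% of all genes. Wholly higher at 24 h lay 5 and wholly lower 5, beside 6.72% and 6.68% of all genes. Higher without overlap were PRR9, PRR5, LNK1, LNK2 and LNK4, and lower without overlap were ELF4, ELF3, RVE2, JMJD5 and COR27. The morning genes CCA1 and LHY were low at both times, with 1.879 ± 0.486 and 1.002 ± 0.161 CPM at 24 h and 1.436 ± 0.191 and 0.8837 ± 0.144 CPM at 8 h. The evening gene TOC1 stood at 201.2 ± 13 CPM at 24 h and 202 ± 15 CPM at 8 h, a log2 change of -0.01 ± 0.0805 (SE; edgeR adjusted p = 0.994). GI stood at 314.1 ± 10.6 CPM at 24 h and 275 ± 37.3 CPM at 8 h (SD, n = 3 each), and the times overlapped. Closest to the threshold were LNK1, with 49.27 CPM at 24 h and 39.03 CPM at 8 h (log2 change 0.34, edgeR adjusted p = 0.0557), and JMJD5, with 47.02 to 59.31 CPM at 24 h and 72.98 to 77.12 CPM at 8 h (log2 change -0.46, edgeR adjusted p = 0.0596).

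No gene passed among 24 of touch and early wounding, 15 of low sugar, 19 of suberin and cork, 16 tested of xylem, 16 tested of phloem and 9 tested of endodermis, with list medians of 0.07, 0.03, -0.03, -0.09, -0.03 and 0.16. None passed among 11 tested genes of cold, dehydration and abscisic acid response, 11 of epidermis, 6 of the root tip, 4 tested of lateral root founding, 2 of cortex and 2 of pericycle. Of all genes tested 0.662% passed, so the lack of calls in lists this small says little about them. Touch genes spanned 1.76 to 215 per length, with a median of 36.7. Among the higher members, ZAT10 stood at 192.9 ± 56.5 at 24 h and 182.5 ± 40.6 at 8 h per length. TCH4, the highest, stood at 222.8 ± 69 at 24 h and 207 ± 59 at 8 h (SD, n = 3 each). For ZAT10 and TCH4 the SD within a time exceeded the difference between the times. In the cambium list 1 of 14 genes fell, beside 0.173% of all genes, and none rose. That gene was the homeobox gene KNAT1, with 93.86, 88.47 and 82.33 CPM at 24 h, and 114.8, 100.5 and 113.9 CPM at 8 h. Its log2 change was -0.32 ± 0.0619 (SE), with edgeR adjusted p = 0.0435, and adjusted p = 0.166 in the fit of the 6 mock libraries. Among the fits that left out 1 mock library, KNAT1 passed only without mock 8 h replicate 2 (edgeR adjusted p = 0.0496). WOX4, PXY and ANT had log2 changes of 0.04, -0.04 and 0.07.

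**Figure D5:**
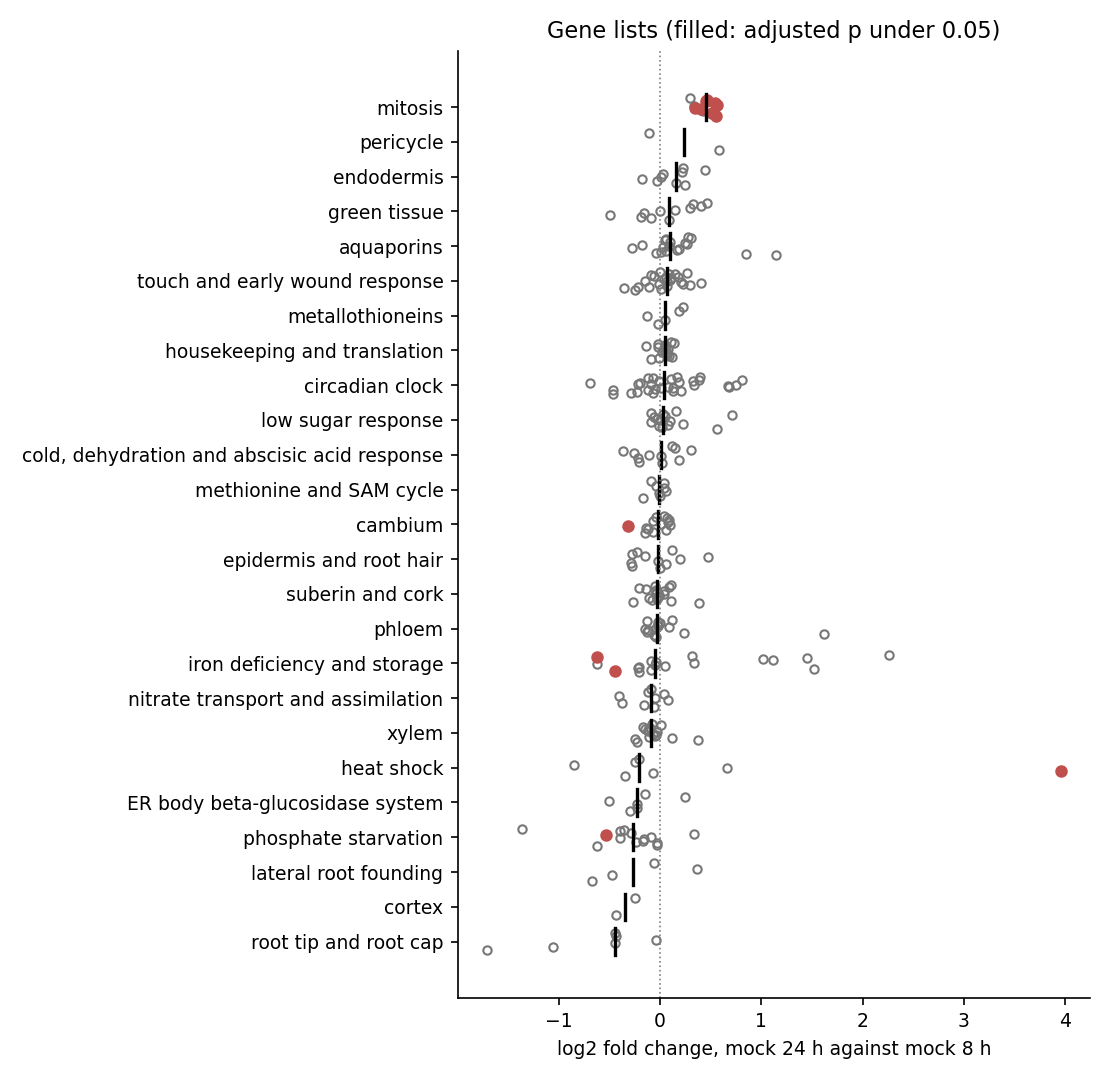
Log2 fold change of mock 24 h against mock 8 h for the tested members of each of the 25 gene lists, filled where the adjusted p is under 0.05, with the list's median as a bar. Mitosis genes lie together to the right of 0 with a median of 0.46, and most other lists centre near 0.

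Some abundant genes varied widely among the replicates of a time. Over 4457 genes of at least 50 mean CPM, the SD of log2 CPM within a time had a median of 0.0794 and a 95th percentile of 0.222. The 5 most variable were MYB15, the anthocyanin genes DFR and LDOX, AT5G14650, of the pectin lyase-like superfamily, and AT2G37130, of the peroxidase superfamily. DFR had 42.9, 51.44 and 9.946 CPM at 24 h, and 63.75, 69.07 and 95.8 CPM at 8 h, and LDOX had 46.84, 51.99 and 15.77 CPM at 24 h, and 70.57, 64.4 and 97.58 CPM at 8 h. Both anthocyanin genes were lowest in mock 24 h replicate 3 and lower in every 24 h library, with log2 changes of -1.13 ± 0.451 and -1.02 ± 0.379 (SE) that did not pass (edgeR adjusted p = 0.422 and 0.371). LDOX may share reads with AT4G22870, which matches 370 bases at 96.2% identity. MYB15 ranged from 67.93 to 145.3 CPM at 24 h and from 68.99 to 124.5 CPM at 8 h.

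The mock time change can be set beside that of the induced libraries, which are separate samples. Between 24 h and 8 h of induction 27.9% of tested genes were called higher and 30.2% lower. Of the 105 genes that rose in mock roots 90 were also called higher and 12 lower in induced roots, and of the 37 that fell 27 were also called lower and 3 higher. The difference of both changes was called for 8740 of 21439 genes (40.8%), for 78 of the 105 and for 24 of the 37. Both sets were chosen by the mock change, which the difference contains, so their shares cannot be compared with 40.8%. Median log2 changes in induced roots were 0.92 for the genes that rose in mock roots and -0.63 for those that fell.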

How the data were processed

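RNA sequencing counts of the 6 mock libraries, with the 6 induced libraries for a shared estimate of the spread, were analysed. Per the labels' protocols, RNA came from a GeneJET Plant kit and libraries from a TruSeq Stranded Total RNA kit. The submitters' processing notes name the build TAIR10. Each deposited file holds gene counts that the authors made, 1 column per library, with a length column. No source used here names the aligner, the counter or whether strand was used, so overlapping and antisense genes are uncertain. Totals lay between 34958324 and 41447647 counts, and counting error is small beside the spread between libraries except for genes near 1 CPM or lower.

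Of 34262 loci, 32548 were matched to RefSeq TAIR10.1 by locus tag, 99.95% of them with the same start and end, and 927 by at least 80% reciprocal overlap. Loci were tested with edgeR 4.0.16, quasi-likelihood F test, in R 4.3.3 (TMM, filterByExpr, 1 coefficient per group over 12 libraries, Benjamini-Hochberg adjusted p under 0.05). The biological coefficient of variation was 0.0926. The code was checked on simulated counts that gave a gene the same spread in all 12 libraries. That check could not test whether mock and induced roots share a spread. The SE is the log2 fold change divided by the square root of F, without sign. CPM uses TMM-scaled library sizes. Near-identical copies of at least 100 bases and 90% identity were sought with blastn 2.17.0.

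The members, 25 lists with 318 distinct genes and the tests were chosen with earlier results of these data known. Genes to name were drawn from the 20 highest by counts and by length-scaled abundance and the 3 highest markers per cell type. The 10 largest rises and 10 largest falls among non-overlapping called genes (5 CPM or more at the higher time) were added. So were up to 4 called members per list, PLT5 and the 5 most variable genes of at least 50 CPM. Of the 20 highest, HSC70-1, AT1G28400, VSP2, MLP328, AT2G25450 and CYP81F4 were not described further, nor were some of the markers. Same-numbered mock replicates did not deviate together (correlations of 0.243, 0 and -0.186). These 3 values cannot settle whether the numbers pair the samples, and the main fit did not use them. Alternatives were DESeq2 1.42.0, other scalings, filters and lengths, nuclear genes only, a replicate block, the 6 mock libraries alone and each library left out.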

Additional observations from a re-analysis of the deposited data

Results flagged for a closer look

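The time change (24 h against 8 h) differed between induced and mock roots for 19 named genes by the interaction test of edgeR (adjusted p under 0.05). They come from 29 genes, PLT5 and those named for their mock time change. Differences are given on the log2 scale as induced minus mock, and 40.8% of all tested genes passed this test. The difference contains the mock change that chose these genes, so their share cannot be compared with 40.8%. Opposite directions were seen in 6 of the 19. CYP71B24 had a log2 change of -2.64 in induced and 0.90 in mock roots, a difference of -3.53 (adjusted p = 2.27e-06). The thioredoxin-dependent peroxidase 2 gene, TPX2 (AT1G65970), had -2.01 in induced and 0.81 in mock roots, a difference of -2.82 (adjusted p = 1.78e-06). AT2G29340 differed by -1.22 and ROPGEF5 by -1.03, both negative in induced and positive in mock roots. PP2-A8 had 0.69 in induced and -0.70 in mock roots, a difference of 1.38. HSP22 had -2.26 in induced and 3.96 in mock roots, a difference of -6.21 (adjusted p = 0.00101), at levels near or under 1 CPM in mock roots; its induced change did not pass the test (adjusted p = 0.0529).

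The 4 named mitosis genes changed in the same direction in both, more strongly in induced roots: CYCB1;2 differed by 0.61, CDKB2;1 by 0.87, KNOLLE by 0.61 and PLE by 0.59. AT2G38160 differed by 1.32 in the same way. Falls were larger in induced roots for UGT74F2, with a difference of -1.97, GLP4 with -2.19, AMT1;1 with -1.13, PHT1;1 with -0.58 and KNAT1 with -0.31. They were smaller in induced roots for GSTF7, with a difference of 1.21, and AT4G02940 with 0.45. AT2G23910 had a log2 change of -0.16 in induced roots, which did not pass the test, and -0.71 in mock roots, a difference of 0.55.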

How the results depend on the processing

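Against 142 calls between the times, DESeq2 called 385 and the fit of the 6 mock libraries alone called 0, with 1691 at an unadjusted p under 0.05. Leaving out 1 library gave 1 to 150 calls: 1 without mock 24 h replicate 1, 5 without its replicate 3 and 150 without its replicate 2, and 7, 20 and 1 without mock 8 h replicates 1, 2 and 3. The other scalings, filters and the restriction to nuclear genes gave 126 to 170. The fits with fewer libraries had fewer samples; beyond that, the cause was not tested. A replicate block gave 271 calls over 12 libraries and 153 over 6 mock libraries. Whether the replicate numbers pair the samples is not known. Over 29 named genes and 434 recomputed values, 267 kept their direction and side of the threshold, 166 kept their direction and lost the call, and 1 turned round: PLT5, not called, had 0.09, and -0.08 (without mock 24 h replicate 2) to 0.2 when 1 library was left out. The called genes did not overlap between the times, so that they kept their direction was all but fixed in advance. Between 15 and 20 of the 20 most abundant genes per length kept their place, and their share of 9.6% became 9.05% with exonic length. The planned recomputation from start and end could give no other value, since the deposited length is end minus start. The difference between induced and mock time changes gave 7464 to 9379 calls against 8740. Depth limits statements on genes near or under 1 CPM, such as HSP22 and the root tip markers.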

Other observations

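In the iron list, regulators that are normally induced by iron deficiency were counted mostly in 1 library, mock 24 h replicate 2, a pattern noticed after the values were seen. BHLH38 had 0.2395, 2.001 and 0.1114 CPM at 24 h, and 0.3834, 0.2698 and 0.2125 CPM at 8 h. BHLH39 had 0.2395, 2.102 and 0.3343 CPM at 24 h, and 0.639, 0.4797 and 0.2125 CPM at 8 h. BHLH101 reached 1.326 CPM and the small peptide gene AT2G30766 (IMA3) reached 5.629 CPM in that library, and neither passed 1.125 CPM in the other 5. None of the 4 passed the test between the times.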
